A study of Rattus norvegicus with 54 samples.

Results

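The cardiac myosin genes were followed through the infarcted rat heart as a set of 8: the heavy chains Myh6, Myh7 and Myh7b, the ventricular light chains Myl2 and Myl3, the atrial light chains Myl4 and Myl7, and Mylk3, the kinase that phosphorylates the ventricular regulatory light chain. They were taken by gene symbol from the count tables, so they made up 8 of the 40319 genes listed. All 8 passed the low-count filter, as did 17743 of all genes over the 54 libraries.

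The hearts came from female athymic rats of the strain F344/NJcl-rnu/rnu, operated at 8 weeks of age and sampled 1 week later. All 3 treatments were made in this host, which lacks mature T cells: Sham rats had the operation without ligation, MI rats had the left anterior descending coronary artery ligated near its origin, and cell sheet rats had the same ligation followed by a bi-level SMC-EPC sheet laid on the infarct. The sheet held human smooth muscle cells derived from bone marrow mesenchymal stem cells and human endothelial progenitor cells, with reads aligned to rat only. From each of 18 rats, left ventricle below the ligature was divided into infarct zone (anterior wall), border zone (lateral wall) and remote zone (septum), which gave 9 groups of 6 bulk RNA-seq libraries. The zones are pieces of tissue cut by position, so each holds every cell type of that wall. By the labels the 6 libraries of a group are technical replicates and by the methods they are separate hearts. They were treated here as separate hearts. The p-values given here measure the spread between libraries, which is that between animals if the methods hold.

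Myosin heavy chains carry the motor of the thick filament. The adult rat ventricle makes mainly the fast alpha heavy chain from Myh6, and the slower beta heavy chain from its neighbour Myh7 is the form of the fetal ventricle that returns under load, after infarction and when thyroid hormone is low. Each heavy chain binds an essential light chain (Myl3 in the ventricle, Myl4 in the atrium and the fetal heart) and a regulatory light chain (Myl2 in the ventricle, Myl7 in the atrium), and phosphorylation of Myl2 by Mylk3 raises the force of contraction. Myh7b is an ancient slow heavy chain gene whose main known product in the heart is a microRNA.

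The 3 heavy chain genes each carry a microRNA in an intron, a family known as the myomiRs that feeds back on the choice of heavy chain. Their mature sequences are shown because the count tables list their precursors as features of their own, and the counts of the Myh7 one are described below. They are RefSeq entries on GRCr8, 5′ to 3′, with the seed (bases 2 to 8) in capitals. The first pair shares a seed and the last differs from it.

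rno-miR-208a-3p, in Myh6: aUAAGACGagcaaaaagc

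rno-miR-208b-3p, in Myh7: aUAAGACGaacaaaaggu

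rno-miR-499-5p, in Myh7b: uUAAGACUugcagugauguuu

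The libraries held 12699204 to 23397754 counts assigned to genes, with a median of 17216400. Values are given in CPM, a gene's counts divided by its library's TMM-scaled total (trimmed mean of M-values). A list of 20 cardiomyocyte genes was at high level in every Sham library, with a summed 28581 to 102796 CPM over all zones. Of the libraries, 3 animals stood apart and are named here before the results. Cell sheet animal 3 had Myh6 of 196 CPM in the remote zone, where the other 5 cell sheet animals had 3802 to 14202 CPM, and Myh7 of 24057 CPM where they had 1067 to 2614 CPM. Of 13197 genes compared in the remote zone, Myh6 was the gene by which this library lay farthest below the other 17 libraries, by 3.51 on the log2 scale, and Myh7 was the gene by which it lay farthest above them, by 2.44. Sham animal 5 had the lowest cardiomyocyte level of the Sham group in all 3 zones, and cell sheet animal 1 had the lowest of the cell sheet group in the border and remote zones. In the border zone of cell sheet animal 1, Myl2 was at 21.6 CPM, Myl3 at 20.5 CPM and Mylk3 at 9.29 CPM. Results that rest on these animals are given with and without the 3 together, a choice made after their values were seen. In comparisons of cell sheet with MI hearts this leaves out cell sheet animals 1 and 3 and no MI animal. The share of all genes called is given for the full fits only.

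Myh6 was the member that differed most between Sham and MI hearts. Sham libraries of the infarct zone had 1901, 8051 and 10191 CPM (lowest, median and highest of 6) and MI libraries had 72.3, 712 and 3007 CPM. The ranges met only through Sham animal 5, the lowest of its group. The fall was 2.66 on the log2 scale (SE 0.77, a 6.33-fold lower level, adjusted p = 0.0136, edgeR quasi-likelihood test with Benjamini-Hochberg adjustment over all genes, as for all adjusted p-values of single genes here). The bulk tissue does not tell fewer cardiomyocytes from less Myh6 RNA in each. The summed cardiomyocyte list was 31703, 89642 and 102796 CPM in Sham infarct zone libraries and 4536, 15941 and 52882 CPM in MI libraries, so it moved with Myh6, and its part in the Myh6 difference is taken up below by levels relative to that list.

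Border zone Myh6 was 1658, 8273 and 10791 CPM in Sham and 266, 1646 and 2053 CPM in MI, and it fell by 2.47 (SE 0.60, 5.54-fold, adjusted p = 0.0082). In the remote zone, which lies outside the ligated territory, it was 5898, 13719 and 14847 CPM in Sham and 2239, 3532 and 6945 CPM in MI. Here too only Sham animal 5 lay inside the MI range. The remote fall was 1.71 (SE 0.31, 3.27-fold, adjusted p = 0.00272), and Myh6 was the only member called in that zone. The same test in a single fit of all 9 groups lost this call (adjusted p = 0.205) and called 0 members there, and DESeq2 called 4, Myh6 with Myh7b, Myl3 and Mylk3.

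Myh7 did not follow Myh6. Its infarct zone levels were 732, 1275 and 1808 CPM in Sham and 669, 1767 and 2882 CPM in MI, with a log2 difference of 0.38 (95% interval −0.36 to 1.12, adjusted p = 0.365). At the border the difference was −0.01 (−0.85 to 0.82, adjusted p = 0.979) and in the remote zone −0.12 (−0.80 to 0.55, adjusted p = 0.806). The Sham and MI ranges overlapped in all 3 zones. Myh7b fell with Myh6, by 1.56 in the infarct zone (SE 0.49, adjusted p = 0.0189) and by 1.67 in the border zone (SE 0.41, adjusted p = 0.00887). The remote difference was −0.81 (SE 0.31, adjusted p = 0.0671).

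The ventricular light chains and the light chain kinase fell in the ischaemic zones. Myl3, the essential light chain, was 3915, 10189 and 10868 CPM in Sham infarct zone and 454, 1792 and 6413 CPM in MI infarct zone, a fall of 1.90 (SE 0.59, 3.73-fold, adjusted p = 0.0179). Myl2, the regulatory light chain, was 3522, 8403 and 10499 CPM against 610, 2427 and 7443 CPM, a fall of 1.43 (SE 0.55, 2.69-fold, adjusted p = 0.0458). Mylk3 was 371, 1015 and 1124 CPM against 94.0, 213 and 564 CPM, a fall of 1.76 (SE 0.46, 3.38-fold, adjusted p = 0.00842). In each of the 3 genes the lowest Sham library overlapped the MI range and the other Sham libraries reached beyond it.

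Border zone falls were 1.42 for Myl3 (SE 0.47, adjusted p = 0.0300), 1.39 for Myl2 (SE 0.46, adjusted p = 0.0303) and 1.37 for Mylk3 (SE 0.43, adjusted p = 0.0241). Remote zone differences were −0.53 for Myl3 (adjusted p = 0.0784), −0.25 for Myl2 (adjusted p = 0.299) and −0.60 for Mylk3 (adjusted p = 0.0522). Without Sham animal 5, these 3 and Myh7b passed the test in the remote zone as well, which brought the members called there from 1 to 5, all lower in MI. The share of all genes called without that animal is not given here, so the count of 5 has no background beside it. The Myl2 call in the infarct zone was lost without any one of 10 animals: Sham 1, 2, 3, 4 or 6 or MI 2, 3, 4, 5 or 6. The border calls were lost for Myl2 without Sham 1, 2, 3 or 4 or MI 3, for Myl3 without Sham 1, 2, 3, 4 or 6 or MI 3 or 4, and for Mylk3 without Sham 3. The infarct zone falls of Myh6, Myh7b, Myl3 and Mylk3 held whichever animal was left out.

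The atrial light chains were low in these ventricular pieces and moved differently. Infarct zone Myl4 was 8.82, 11.7 and 19.3 CPM in Sham and 6.97, 15.7 and 49.8 CPM in MI, with a log2 difference of 0.72 (adjusted p = 0.139), and in the border zone the difference was 0.61 (adjusted p = 0.0805). Myl7 had a median of 2.11 CPM in Sham and 1.50 CPM in MI infarct zone, with a difference of 0.96 (adjusted p = 0.390). Its border zone levels were 0.559, 2.30 and 8.36 CPM in Sham and 0.092, 0.830 and 1.41 CPM in MI, a fall of 1.99 (SE 0.73, adjusted p = 0.0443) that was lost without Sham 2, 3 or 6 or any one of MI 1 to 5.

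In the remote zone a few libraries set the level of both atrial chains. Sham animal 6 had Myl4 of 206 CPM and Myl7 of 201 CPM, against 4.99 to 15.1 CPM and 0.533 to 5.54 CPM in the other 5 Sham libraries. MI animal 1 had 80.1 and 62.5 CPM, cell sheet animal 1 had 67.6 and 79.6 CPM, and cell sheet animal 4 had 76.7 and 80.8 CPM. Both chains were thus high together in single septal pieces of each treatment. Of 10 other atrial marker genes, none was at 0 in any group, and their summed level in the remote zone was 111, 179 and 301 CPM in Sham, 112, 115 and 172 CPM in MI and 155, 180 and 204 CPM in cell sheet hearts. Sln, 1 of these 10, reached 72.5 CPM in the highest Sham remote library against a median of 0.321 CPM. Of 7 genes of the list tested in MI against Sham remote zone, 1 rose and 3 fell, where 25.8% of all genes were called. The part of atrial tissue in these values was not tested. Without Sham animal 6 the remote MI against Sham difference moved from −0.56 to 1.43 for Myl4 and from −1.38 to 2.53 for Myl7, with neither called either way.

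Counted together, 5 of 8 members were called in MI against Sham in the infarct zone, where 49.9% of all genes tested were called, 6 of 8 in the border zone, where 41.7% were, and 1 of 8 in the remote zone, where 25.8% were. All these calls were falls. The median log2 difference of the 8 members was −1.50 in the infarct, −1.40 in the border and −0.58 in the remote zone, beside medians over all genes of −0.02, −0.02 and −0.04. The members' share of all gene counts had a median of 2.53% in Sham and 0.776% in MI infarct zone, 2.68% and 1.24% in the border zone, and 3.03% and 1.83% in the remote zone.

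**Figure D1:**
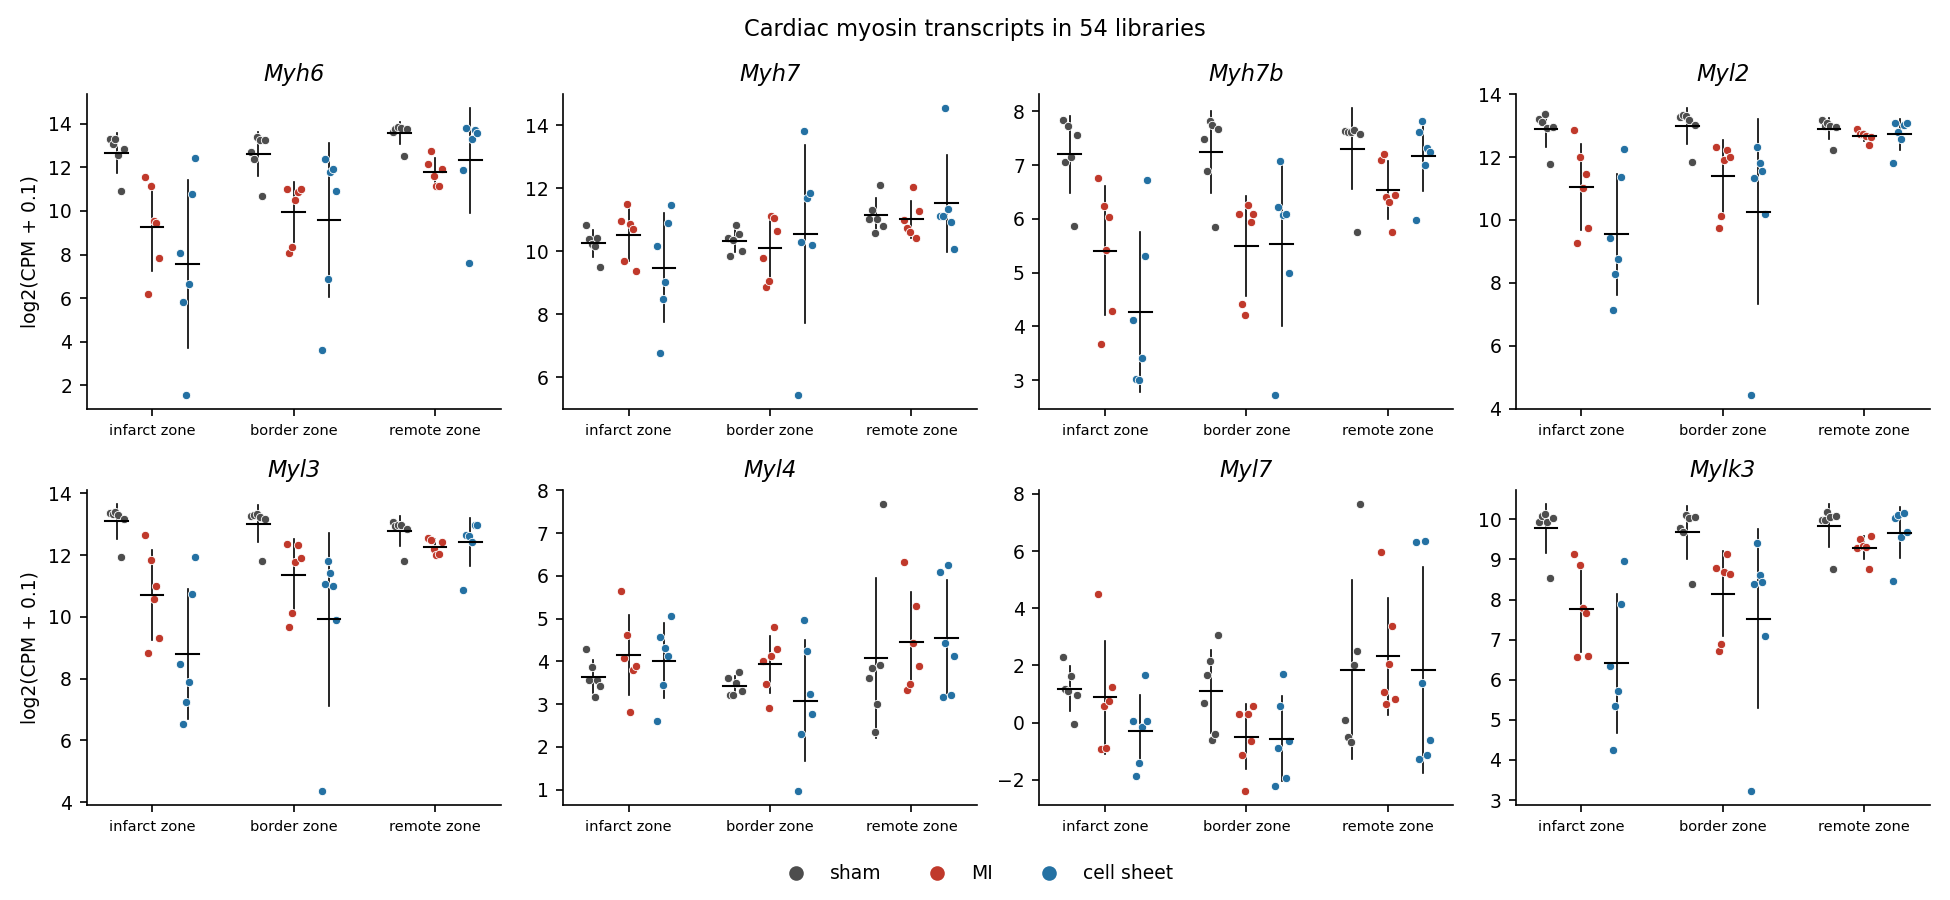
Level of each of the 8 members in every library, as log2 of CPM plus 0.1, by zone and treatment, with points for libraries and bars for the mean and SD of 6. Myh6, Myl2, Myl3 and Mylk3 sat lower in MI than in Sham infarct and border zones, Myh7 overlapped throughout, and the atrial chains Myl4 and Myl7 were high in a few remote libraries.

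The balance of slow to fast heavy chain was read in each library as the ratio of Myh7 counts to Myh6 counts. This is a ratio of reads and not of molecules, because the genes differ in length, and it is uncertain to the extent that reads from these near-identical neighbours were assigned to the wrong one. The differences between treatments were tested with a two-sided exact permutation test on log2 ratios, for which 6 libraries against 6 allow a p no smaller than 0.00216, with adjustment over the 9 comparisons.

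In Sham hearts the ratio was close to constant over the zones, with medians of 0.166 (infarct), 0.180 (border) and 0.155 (remote). Sham animal 5 was the exception, with 0.720, 0.899 and 0.753, and the other 15 Sham libraries lay between 0.0990 and 0.202. In MI infarct zone the 6 ratios were 0.667, 1.27, 2.39, 2.56, 2.91 and 11.4, so that in 5 of 6 libraries Myh7 reads outnumbered Myh6 reads. In MI border zone they ran from 0.429 to 1.77 with a median of 1.35, and in MI remote zone from 0.248 to 1.85 with a median of 0.555. Only Sham animal 5 reached into the MI range in each zone.

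The MI ratio was 12.6-fold higher than Sham in the infarct zone (log2 difference 3.65, exact permutation p = 0.00433, adjusted p = 0.0195), 5.35-fold higher in the border zone (2.42, p = 0.00649, adjusted p = 0.0195) and 3.11-fold higher in the remote zone (1.64, p = 0.0195, adjusted p = 0.0351). The remote difference was lost, with adjusted p up to 0.0623, without any one of Sham 1, 2, 3, 4 or 6 or MI 4, 5 or 6. The higher ratio came with lower Myh6 counts and with Myh7 counts that did not pass the test, as given above.

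The cell sheet hearts covered the widest span of ratios. Infarct zone ratios were 0.519, 1.09, 1.93, 4.27, 5.23 and 125.1, in the border zone 0.235, 0.606, 0.946, 0.949, 3.52 and 124.3, and in the remote zone 0.0883, 0.143, 0.157, 0.257, 0.584 and 122.5. The highest value in each zone was cell sheet animal 3. In the remote zone 4 of the other 5 cell sheet animals had 0.0883 to 0.257, where Sham libraries other than animal 5 had 0.103 to 0.184, and cell sheet animal 1 had 0.584.

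Against Sham, the cell sheet ratio was 20.3-fold higher in the infarct zone (log2 difference 4.34, exact permutation p = 0.00433, adjusted p = 0.0195) and 9.55-fold higher in the border zone (3.26, p = 0.0130, adjusted p = 0.0292). The remote difference was 1.62 (exact permutation p = 0.457, adjusted p = 0.685). The border call was lost without any one of Sham 1, 2, 3, 4 or 6. Without the 3 animals that stand apart the differences were 3.43, 1.97 and 0.08, with exact permutation adjusted p of 0.0143, 0.0143 and 0.841.

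Against MI, the cell sheet ratio differed by 0.69 on the log2 scale in the infarct zone (adjusted p = 0.787), by 0.84 in the border zone (adjusted p = 0.787), and in the remote zone by −0.02 (adjusted p = 0.991, all exact permutation tests). Animal 3 decided the remote value. Without it alone the remote difference was −1.57 (adjusted p = 0.0390), and without the 3 animals it was −1.96 (adjusted p = 0.0214), with the cell sheet ratio lower than the MI ratio. The infarct and border differences without the 3 animals were −0.61 (adjusted p = 0.579) and −0.87 (adjusted p = 0.196). Across all 6 animals, then, no difference in ratio between cell sheet and MI hearts was called in any zone, and the remote call appeared only with animal 3 left out.

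**Figure D2:**
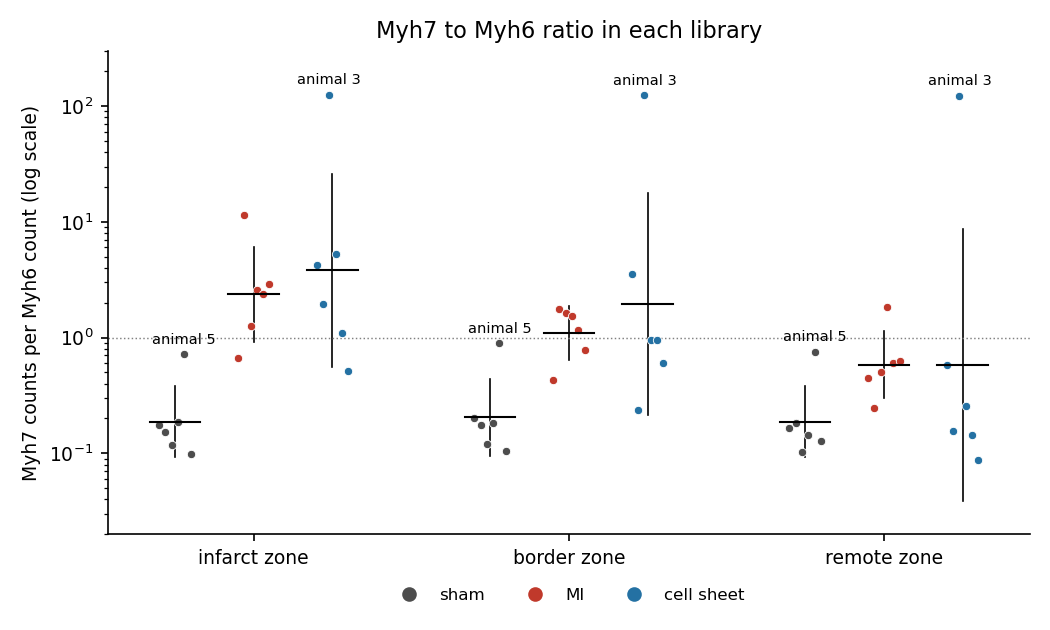
Ratio of Myh7 counts to Myh6 counts in each of the 54 libraries on a log axis, by zone and treatment, with bars for the mean of log2 ratios, lines for 1 SD and a dotted line at equal counts. Cell sheet animal 3 sits near 125 in all 3 zones and Sham animal 5 above the other Sham libraries, and MI libraries lie above the other Sham libraries in every zone.

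Since the 3 zones came from the same hearts, the ratio was also compared within animals. In Sham hearts the infarct zone ratio differed from the remote zone ratio by −0.00 ± 0.28 (mean log2 difference ± SD, n = 6), and was higher in 3 of 6 animals. In MI hearts it was higher in 6 of 6 animals, by 2.01 ± 1.86, and in cell sheet hearts in 6 of 6, by 2.73 ± 1.47. An exact sign-flip permutation test of 6 animals cannot give less than p = 0.03125, the value both reached, and with adjustment over 6 tests both had p = 0.0625. The border zone exceeded the remote zone by 0.91 ± 1.18 in MI hearts (4 of 6 animals, exact permutation adjusted p = 0.234) and by 1.76 ± 1.19 in cell sheet hearts (6 of 6 animals, adjusted p = 0.0625).

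The infarct to remote step was larger in MI than in Sham hearts by 2.02 on the log2 scale (exact permutation p = 0.00216, the smallest possible, adjusted p = 0.00866 over 4 tests). The other 3 differences of zone steps, between MI and Sham for the border zone and between cell sheet and MI for both zones, had adjusted p of 0.273, 0.472 and 0.309 by the same permutation test.

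The same question was put to the single genes in a fit with each animal as a block. For MI against Sham, the infarct effect was more negative than the remote effect in 3 of 8 members, where 28.9% of all genes were called: by 1.58 for Myl2 (SE 0.52, adjusted p = 0.0341), by 1.85 for Myl3 (SE 0.57, adjusted p = 0.0258) and by 1.43 for Mylk3 (SE 0.44, adjusted p = 0.0267). Myh6, which fell in all 3 zones, was not among them. The call was lost for Myl2 without any one of 7 animals, for Myl3 without MI 6 and for Mylk3 without Sham 2 or MI 6. In the border against remote zone, edgeR called 0 of 8 members and 0% of all genes, with 2 members at an unadjusted p under 0.05, and DESeq2 called 1 member. Between cell sheet and MI, edgeR called 0 of 8 members and 0% of genes for each pair of zones, with 0 members at an unadjusted p under 0.05, and DESeq2 called 0.

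Cell sheet hearts were then compared, gene by gene, with the same Sham libraries that had served for MI. In the infarct zone 4 of 8 members were called, all falls, where 57.9% of all genes were called. Myl3 showed the clearest separation, with 91.9, 295 and 3892 CPM in cell sheet hearts against 3915, 10189 and 10868 CPM in Sham, so that no library of one group reached the other. It fell by 3.11 (SE 0.89, 8.63-fold, adjusted p = 0.0109). Mylk3 was 18.8, 66.9 and 496 CPM in cell sheet hearts and fell by 2.60 (SE 0.72, 6.05-fold, adjusted p = 0.00921), Myl2 fell by 2.41 (SE 0.79, adjusted p = 0.0206) and Myh7b by 2.36 (SE 0.67, adjusted p = 0.0105).

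Myh6 was 2.87, 184 and 5516 CPM in the cell sheet infarct zone, with a difference of −2.54 (95% interval −5.30 to 0.21, adjusted p = 0.102). The spread among the 6 cell sheet libraries was wide, as the interval shows. Myh7 differed by −0.13 (adjusted p = 0.863), Myl4 by 0.54 (adjusted p = 0.197) and Myl7 by −1.27 (adjusted p = 0.094). Without the 3 animals, 4 members were again called: Myh7b, Myl3 and Mylk3 remained, Myl2 did not (−2.16, adjusted p = 0.0536), and Myl4 was called as a rise of 0.84 (adjusted p = 0.0188).

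At the border of cell sheet hearts 1 of 8 members was called against Sham, where 43.6% of all genes were called. Myl3 was 20.5, 2085 and 3567 CPM against 3576, 9723 and 10249 CPM in Sham, again without overlap, and fell by 2.22 (SE 0.77, 4.65-fold, adjusted p = 0.0336). That call was lost without any one of Sham 1, 2, 3, 4 or 6 or cell sheet 2, 5 or 6. Without the 3 animals 6 members were called: Myh6 fell by 1.20 (adjusted p = 0.00709), Myh7b by 1.63, Myl2 by 1.89, Myl3 by 2.31 and Mylk3 by 1.70, and Myh7 rose by 0.89 (adjusted p = 0.0465). The share of all genes called in that reduced fit is not given here. With all animals the border differences were −1.58 for Myh6 (adjusted p = 0.215) and 1.58 for Myh7 (−0.28 to 3.43, adjusted p = 0.152). For the other 5 they were −1.40 for Myh7b, −1.76 for Myl2, 0.15 for Myl4, −1.68 for Myl7 and −1.49 for Mylk3, with adjusted p of 0.0556 to 0.828.

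In the remote zone 0 of 8 members were called between cell sheet and Sham hearts by edgeR, where 0.0066% of all genes (1 gene) were called, and 0 members had an unadjusted p under 0.05. DESeq2 also called 0. Myh6 was 196, 11125 and 14202 CPM against 5898, 13719 and 14847 CPM in Sham, a difference of −0.50 (−1.92 to 0.92, adjusted p = 0.860), and Myh7 differed by 1.20 (−0.34 to 2.73, adjusted p = 0.619). Without the 3 animals these were −0.17 (adjusted p = 0.564) and −0.05 (adjusted p = 0.942). The other 6 members differed by −0.18 (Myh7b), −0.17 (Myl2), −0.29 (Myl3), −0.37 (Myl4), −0.35 (Myl7) and −0.17 (Mylk3). Over all 8 members the median difference from Sham was −2.38 in the infarct, −1.53 in the border and −0.24 in the remote zone, beside 0.01, −0.03 and −0.01 over all genes.

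The comparison of cell sheet with MI hearts asks what the sheet changed in the infarcted heart. No member was called in any zone. In the infarct zone 0 of 8 were called by edgeR, where 0% of all genes were called and 1341 genes had an unadjusted p under 0.05, none of them a member. The border zone gave 0 of 8, where 18% of genes were called, with 0 members at an unadjusted p under 0.05. The remote zone gave 0 of 8, where 17.1% of genes were called, with 1 member, Myh7b, at an unadjusted p under 0.05. DESeq2 called 0 members in each zone.

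The intervals were wide. In the infarct zone the difference between cell sheet and MI was 0.13 for Myh6 (−2.72 to 2.99, adjusted p = 0.987), −1.20 for Myl3 (adjusted p = 0.756) and −2.23 for Myl7 (−4.47 to 0.02, adjusted p = 0.606). The other 5 members differed there by −0.52 (Myh7), −0.79 (Myh7b), −0.98 (Myl2), −0.20 (Myl4) and −0.84 (Mylk3). Border zone Myh6 differed by 0.92 (adjusted p = 0.570) and Myh7 by 1.62 (−0.36 to 3.60, adjusted p = 0.244), and the others by 0.31 (Myh7b), −0.34 (Myl2), −0.76 (Myl3), −0.44 (Myl4), 0.34 (Myl7) and −0.093 (Mylk3). Remote zone Myh6 differed by 1.22 (−0.21 to 2.64, adjusted p = 0.207), Myh7 by 1.34 (−0.17 to 2.84, adjusted p = 0.188) and Myh7b by 0.63 (0.01 to 1.26, adjusted p = 0.138), and the others by 0.09 (Myl2), 0.25 (Myl3), 0.18 (Myl4), 1.01 (Myl7) and 0.43 (Mylk3).

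The remote zone again turned on the animals that stand apart. Without the 3, edgeR called 3 of 8 members, all higher in cell sheet than in MI hearts: Myh6 by 1.69 (adjusted p = 0.00167), Myh7b by 0.68 (adjusted p = 0.0408) and Mylk3 by 0.55 (adjusted p = 0.0234). Myh7 then differed by −0.20 (adjusted p = 0.659). This setting left out cell sheet animals and no MI animal, and the share of all genes called in it is not given here. No member was called in the infarct or border zone without the 3 animals. Over all 8 members the median difference was −0.81 in the infarct, 0.11 in the border and 0.53 in the remote zone, beside −0.01, −0.00 and 0.01 over all genes.

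**Figure D3:**
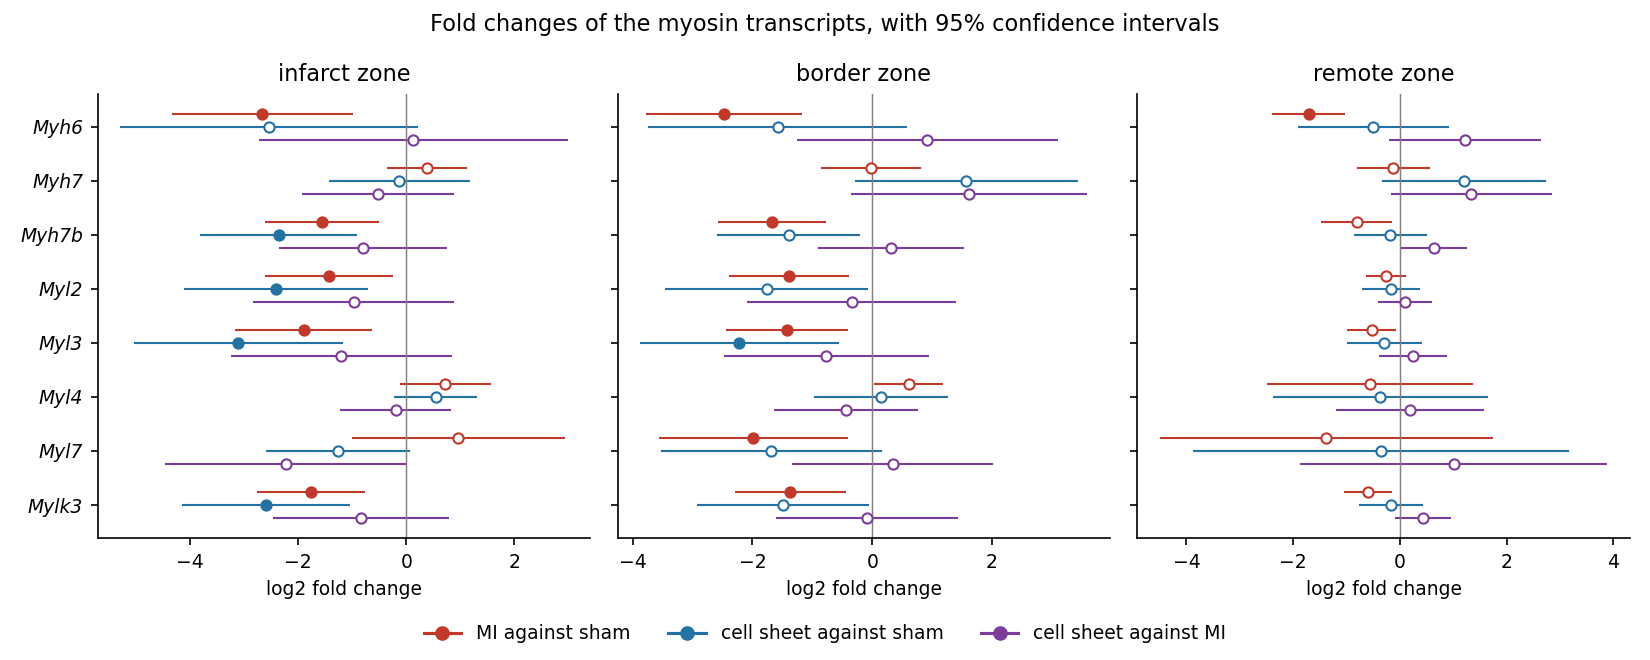
Log2 fold change of each member with its 95% interval in the 9 comparisons, by zone, with filled points where the adjusted p was under 0.05. The filled points all lie below 0: 5, 6 and 1 for MI against Sham in the infarct, border and remote zones, 4, 1 and 0 for cell sheet against Sham, and none for cell sheet against MI.

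The members were next set against the other contents of the cardiomyocyte. In each library the log2 level of a member was taken relative to the mean of the 20-gene cardiomyocyte list, and the 72 differences were tested by exact permutation, with adjustment over all 72. Of these, 25 were called. The share of other genes called on this scale is not given here, so the 25 are not read as particular to the members. The list itself fell in 20, 18 and 9 of its 20 genes in MI against Sham in the infarct, border and remote zones, so a value of 0 here means a change equal to that of the list. A gene that kept its level while the list fell scores as a rise.

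Myh6 fell by more than the list in every zone of the MI heart. The relative level was lower than in Sham by 1.11 in the infarct zone and by 0.86 in the border zone (exact permutation adjusted p = 0.0183 each), and by 1.12 in the remote zone (adjusted p = 0.0156). There it was 2.29 ± 0.10 in Sham and 1.18 ± 0.41 in MI (mean log2 ± SD, n = 6), without overlap. In that zone Sham animal 5, low in Myh6 itself, was within the other Sham libraries on this scale. Myh7 moved the other way and was higher relative to the list by 2.55 in MI infarct zone (adjusted p = 0.0183) and by 1.55 in MI border zone (adjusted p = 0.0260, lost without any one of Sham 1, 2, 3, 4 or 6), and by 2.81 and 2.69 in the same zones of cell sheet hearts (adjusted p = 0.0156 and 0.0183, exact permutation tests).

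The ventricular light chains parted from each other on this scale. Myl2 was higher than in Sham by 0.44 in MI infarct zone (exact permutation adjusted p = 0.0156, 1.76 ± 0.10 in Sham and 2.20 ± 0.18 in MI, n = 6) and by 0.42 in MI remote zone (adjusted p = 0.0183). The infarct value was 0.22 (permutation adjusted p = 0.0686) when only the sarcomere genes of the list were used. In cell sheet hearts it was lower than in MI by 0.44 in the border zone (adjusted p = 0.0156), and in the remote zone by 0.41 (adjusted p = 0.0183). In CPM Myl2 was not called in either, at −0.34 and 0.09 (edgeR adjusted p = 0.808 and 0.806).

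Myl3 was the member in which cell sheet and MI hearts differed in all 3 zones relative to the list. In CPM it was not called between them in any zone. The CPM differences were −1.20 in the infarct, −0.76 in the border and 0.25 in the remote zone (edgeR adjusted p = 0.756, 0.545 and 0.578). The infarct zone relative level of Myl3 was 1.95 ± 0.10 in Sham, 1.85 ± 0.18 in MI and 1.25 ± 0.16 in cell sheet hearts. At the border it was 1.94 ± 0.13, 2.08 ± 0.09 and 1.32 ± 0.13, and the cell sheet libraries lay below all others in both zones. Cell sheet was lower than MI by 0.60 in the infarct zone and by 0.76 in the border zone (exact permutation adjusted p = 0.0156 each), and lower than Sham by 0.70 and 0.63 (adjusted p = 0.0156 each). In the remote zone it was lower than MI by 0.33 (adjusted p = 0.0312), where MI was above Sham by 0.16 (adjusted p = 0.0390). Without the 3 animals the infarct and border differences from MI were −0.60 and −0.72 (adjusted p = 0.0245 each) and the remote one was −0.25 (adjusted p = 0.0735). The remote Myl3 calls were lost with sarcomere genes only, and also without MI 1, 5 or 6 for the difference from MI and without any one of Sham 2 to 6 or MI 5 or 6 for that between MI and Sham.

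Of the remaining called differences, all were rises relative to the list. Myl4 was higher than in Sham by 2.79 in MI infarct zone and by 2.30 in MI border zone, and by 3.97 and 2.12 in cell sheet infarct and border zones, with exact permutation adjusted p of 0.0156 to 0.0371. The cell sheet border call was lost without any one of Sham 1, 2, 3, 4 or 6 or cell sheet 1, 3, 4 or 6. In CPM, with all animals, Myl4 was not called in any of these comparisons with Sham. Myl7 was higher by 1.98 in MI and by 2.13 in cell sheet infarct zone (adjusted p = 0.0390 each, permutation tests). The first call was lost without any one of Sham 2 to 6 or MI 6 and the second without Sham 2, 3, 4 or 6, any one of cell sheet 1 to 5, or the 3 animals. In CPM neither was called, with Myl7 at 0.96 in MI and −1.27 in cell sheet infarct zone against Sham (edgeR adjusted p = 0.390 and 0.0940). Myl7 was near the floor in cell sheet infarct zone, with a median of 0.867 CPM and 4 to 63 counts. Myh7b was higher by 0.49 in MI infarct zone (adjusted p = 0.0436) and Mylk3 by 0.26 in MI border zone (adjusted p = 0.0312). Both were lost when single animals were left out, Myh7b without any one of Sham 2 to 6 or MI 2, 4, 5 or 6 and Mylk3 without Sham 1, 2, 3 or 4 or MI 2, and with sarcomere genes only Myh7b was at 0.27 (permutation adjusted p = 0.306). For Myh6, the relative level in cell sheet hearts was not called against MI with all animals (0.30 in the border zone, adjusted p = 0.940, and 0.06 in the remote zone, adjusted p = 0.996) and was called as higher without the 3 (1.59 and 1.09, adjusted p = 0.0245 each, permutation tests).

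In the infarct zone Myl4 and Myh7 were higher than in Sham relative to the cardiomyocyte list. In CPM neither was called there with all animals. A list of 10 skeletal muscle markers is set beside these relative rises. Its summed level was 9.25, 17.5 and 43.0 CPM in Sham, 27.6, 46.3 and 65.9 CPM in MI and 32.4, 61.7 and 523 CPM in cell sheet infarct zone. Of 5 of its genes tested, 2 rose in MI against Sham and 4 in cell sheet against Sham, where 49.9 and 57.9% of all genes were called. The MI share was thus no higher than that of all genes. The median log2 difference of the genes tested was −0.37 in MI and 2.92 in cell sheet hearts. Of the list's defining genes, Myh1 had 0 counts in all Sham infarct zone libraries and Myh4 in all MI ones, and both reached above 0 in the cell sheet group. The part of these markers in the relative rises of Myl4 and Myh7 was not tested.

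**Figure D4:**
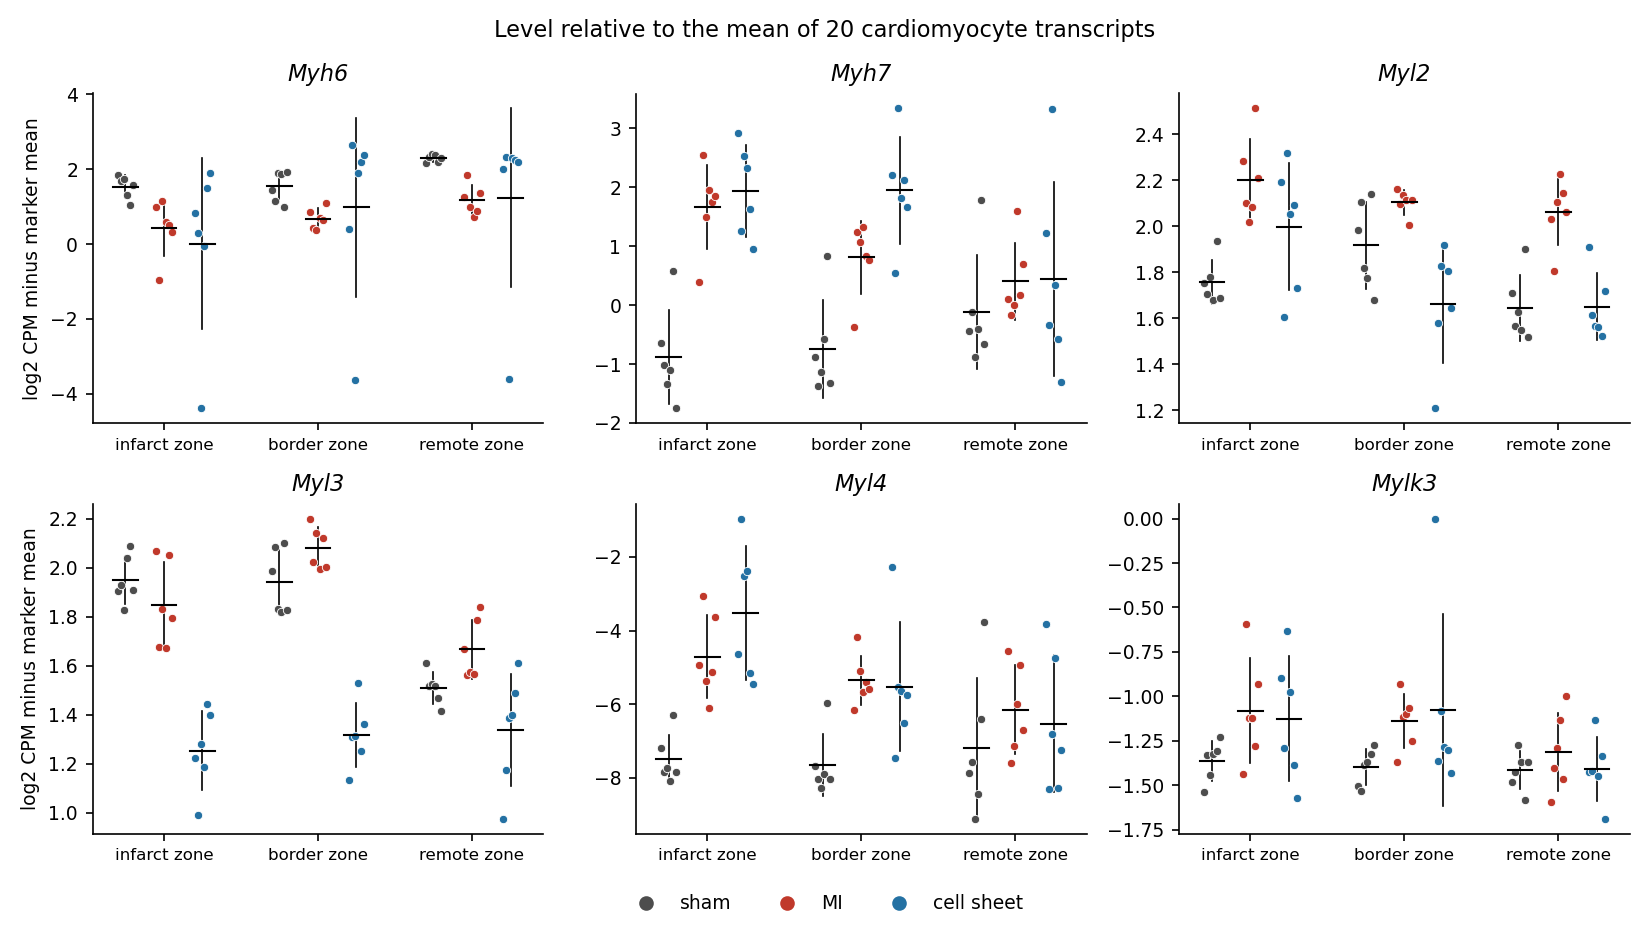
Log2 level of Myh6, Myh7, Myl2, Myl3, Myl4 and Mylk3 in each library after subtracting the mean log2 level of 20 cardiomyocyte genes, by zone and treatment, with the mean and SD of 6. Cell sheet libraries sit below MI and Sham libraries for Myl3 in the infarct and border zones, and MI remote libraries sit below all Sham remote libraries for Myh6.

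Ratios between other members were read the same way, in 36 tests adjusted together. The ratio of atrial to ventricular essential light chain, Myl4 to Myl3, had medians of 0.00124 in Sham, 0.00730 in MI and 0.0439 in cell sheet infarct zone. It was 7.41-fold higher than Sham in MI and 25.5-fold higher in cell sheet infarct zone, without overlap in either case, and 4.46-fold and 6.66-fold higher in the border zone (exact permutation adjusted p = 0.0260 for all 4). In these 4 comparisons Myl3 was called as a fall in CPM and Myl4, with all animals, was not called, as given above. The ratio of Myh7b to Myh7 had infarct zone medians of 0.125 in Sham, 0.0277 in MI and 0.0212 in cell sheet hearts. It was lower than Sham by 2.06 in MI (adjusted p = 0.0260) and by 2.16 in cell sheet infarct zone (adjusted p = 0.0260), and by 1.51 in MI border zone (adjusted p = 0.0445). The infarct Myl4 to Myl3 calls held whichever animal was left out. The border calls were lost without Sham 3 or 6 in MI hearts and without any one of Sham 1, 2, 3, 4 or 6 in cell sheet hearts. Those of Myh7b to Myh7 were lost without Sham 3 or 6 (MI infarct), any one of Sham 1, 2, 3, 4 or 6 (cell sheet infarct), and any one of these or MI 2 to 6 (MI border). These 7 were the calls among the 36, and none of the 18 tests of Mylk3 to Myl2 or Myl7 to Myl2 had an adjusted p under 0.05.

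Across the 9 groups, Myh6 ordered as Sham remote (mean log2 CPM 13.55 ± 0.51), Sham infarct (12.67 ± 0.92), Sham border (12.62 ± 1.02), cell sheet remote (12.32 ± 2.41), MI remote (11.79 ± 0.63), MI border (9.96 ± 1.37), cell sheet border (9.58 ± 3.54), MI infarct (9.28 ± 2.02) and cell sheet infarct (7.55 ± 3.85). Of the 8 steps between neighbours in this order, 2 exceeded the pooled SD of their groups: from Sham remote to Sham infarct and from MI remote to MI border. For Myh7, Myl4 and Myl7 no step did. For Myl2, Myl3 and Mylk3 the 1 step that did was the one below MI remote, and for Myh7b the one below cell sheet remote.

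Genes whose levels ranked the 54 libraries most like each member were found among 13285 genes. They are given as a description, since the libraries share zones, animals and cardiomyocyte content. Myh6 was closest to Pdp2 (Spearman rho 0.962) and Agpat3 (0.940), Myl3 to Uqcrfs1 (0.994), Tnni3 (0.991) and Etfa (0.991), Myl2 to Mrpl40 (0.983), Ndufs7 (0.982) and Ndufs8 (0.982), Myh7b to Rnf207 (0.973), Carns1 (0.963) and Srpk3 (0.960), and Mylk3 to Dnaja4 (0.981), Gatd3a (0.976) and Zfp106 (0.975). Myh7 had no gene as close, with Xirp2 (0.784), Daam1 (0.782) and Map1a (0.781) at the top, and the atrial chains had still lower values, led by Hamp for Myl4 (0.558) and Plxdc1 for Myl7 (0.589). Tnni3 is the cardiac troponin inhibitor, and Uqcrfs1, Ndufs7 and Ndufs8 are subunits of the mitochondrial respiratory chain. Among the members themselves rho was 0.973 for Myl2 and Myl3, 0.940 for Myh7b and Mylk3 and 0.279 for Myh6 and Myh7.

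The fast heavy chain locus holds other transcripts, and these were looked at after their values were seen. By GRCr8 gene order, LOC108352923 is a long noncoding RNA gene that overlaps the end of Myh6, and Mir208b lies within Myh7. LOC108352923 had medians of 53.8, 52.8 and 55.9 CPM in Sham infarct, border and remote zones, 4.46, 8.87 and 16.7 CPM in MI and 0.728, 5.73 and 28.5 CPM in cell sheet hearts. Over the 54 libraries its Spearman rho was 0.926 with Myh6 and 0.144 with Myh7. Mir208b also followed Myh6 (0.897) and not its host Myh7 (0.220). In the remote library of cell sheet animal 3, where Myh7 was the highest of all, LOC108352923 had 16 counts (0.939 CPM) and Mir208b had 12 counts, the lowest of the cell sheet remote group, whose median was 68. The setting for strand is not named in the sources used here, so reads of Myh6 and of a transcript that overlaps it cannot be told apart. Nor can reads of Mir208b be told apart from those of another transcript over the same bases. Mir208a had 0 counts in every library and Mir499a 6 counts in all, in poly-A libraries that are not made to hold short RNAs.

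**Figure D5:**
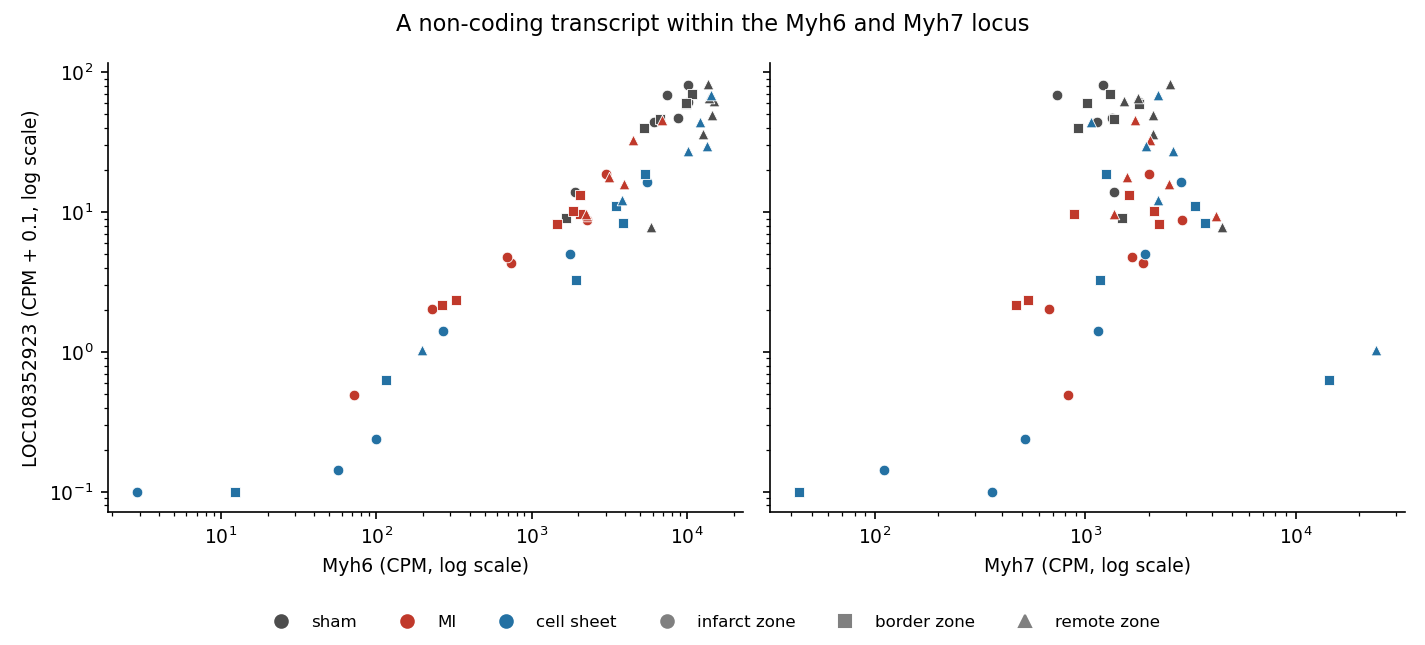
Level of LOC108352923 against Myh6 and against Myh7 in the 54 libraries, in CPM on log axes, with colour for treatment and shape for zone. The points follow Myh6 (Spearman rho 0.926) and scatter against Myh7 (0.144).

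Promoter windows on GRCr8, of 300 bases that end just after the gene's annotated start, were on hand from RefSeq for 7 of the 8 members, all but Myl2. The 3 printed here belong to members that fell in MI infarct zone and whose windows held a site marked in capitals. Myh7b also fell there, and its window, which held no such site, is not printed. The choice therefore gives no link between the sites and the falls. Capitals mark the MCAT element (CATTCC, or GGAATG on the other strand), the site AGATAA known for GATA factors, and the CArG box of serum response factor. E-boxes (CANNTG), which occur in 72.1% of all 33469 windows of this length, are not marked.

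Myl3, chr8:119616844-119617143, plus strand: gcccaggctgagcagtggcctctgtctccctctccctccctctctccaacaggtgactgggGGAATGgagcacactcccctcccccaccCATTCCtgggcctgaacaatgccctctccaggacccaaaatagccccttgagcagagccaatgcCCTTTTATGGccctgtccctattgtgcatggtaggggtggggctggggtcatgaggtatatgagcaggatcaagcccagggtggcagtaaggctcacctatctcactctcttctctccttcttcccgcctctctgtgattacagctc

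Mylk3, chr19:37881745-37882044, plus strand: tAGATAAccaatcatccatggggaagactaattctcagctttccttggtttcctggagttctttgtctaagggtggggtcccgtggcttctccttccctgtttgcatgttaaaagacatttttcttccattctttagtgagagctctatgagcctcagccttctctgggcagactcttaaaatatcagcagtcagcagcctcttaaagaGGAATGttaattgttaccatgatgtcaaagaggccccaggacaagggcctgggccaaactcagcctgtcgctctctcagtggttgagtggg

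Myh6, chr15:32411648-32411947, minus strand: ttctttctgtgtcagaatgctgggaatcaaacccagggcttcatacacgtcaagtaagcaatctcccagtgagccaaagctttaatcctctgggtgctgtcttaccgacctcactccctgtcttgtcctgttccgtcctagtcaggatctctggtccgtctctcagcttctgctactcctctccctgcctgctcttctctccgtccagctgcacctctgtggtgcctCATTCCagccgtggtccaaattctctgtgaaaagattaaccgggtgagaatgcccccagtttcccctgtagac

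The Myl3 window held 2 MCAT elements and 1 CArG box, the Mylk3 window 1 MCAT element and 1 GATA site, and the Myh6 window 1 MCAT element. Over all windows, 14.2% held an MCAT element, 11.6% a GATA site and 1.64% a CArG box. The windows of Myh7, Myh7b, Myl4 and Myl7 held none of these 3. The annotated starts were not checked against the start of transcription, and the Myh7 window may lie downstream of it. A match says only that these letters are present, and the lack of one says nothing of bases outside the window.

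The other genes of the thick filament mostly fell in MI hearts. Of 16 tested from a list of 18 thick filament and assembly genes, 15 fell and 1 rose in MI against Sham in the infarct zone, with the same counts in the border zone, and 14 fell and 1 rose in the remote zone, where 49.9, 41.7 and 25.8% of all genes were called. The remote falls included Cmya5, a protein of the cardiomyocyte costamere (−1.19), and Mybpc3, the cardiac myosin binding protein (−1.01). The rise was Mybpc2, the fast skeletal form of the myosin binding protein, by 1.54, 1.56 and 1.32 in the 3 zones. In cell sheet against MI hearts 8 of the 16 rose in the remote zone, where 17.1% of all genes were called, among them Myom3, a protein of the M-band (1.18, adjusted p = 0.0363), Smyd1, a methyltransferase needed for sarcomere assembly (1.14, adjusted p = 0.0165), and Mybpc3 (1.06, adjusted p = 0.0202). None was called in the infarct or border zone.

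Of 14 genes of light chain phosphorylation, 13 were tested in MI against Sham. In the infarct zone 2 rose and 8 fell, at the border 6 fell, and in the remote zone 2 rose and 2 fell, beside 49.9, 41.7 and 25.8% of all genes called, so the border and remote shares lay near those of all genes. Mylk4, a kinase related to Mylk3, fell by 2.37 in the border zone and by 1.40 in the remote zone, and Ppp1r12b, the myosin phosphatase targeting subunit of striated muscle, fell by 1.13, 1.20 and 1.01 in the 3 zones. In cell sheet against MI hearts 4 of the 13 fell and 1 rose in the border zone, where 18% of all genes were called. The falls there included Ppp1r14a, an inhibitor of myosin phosphatase (−0.62), and the rise was Mylk, the smooth muscle light chain kinase (0.46). The remote zone had 2 rises and 1 fall of 13, beside 17.1% of all genes, with Ppp1r12b higher by 1.09 (adjusted p = 0.0088).

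Of 21 tested genes known to control transcription of the cardiac myosins, 15 fell and 4 rose in MI infarct zone against Sham, 13 fell and 3 rose in the border zone, and 10 fell and 2 rose in the remote zone, beside 49.9, 41.7 and 25.8% of all genes. Nkx2-5 fell by 1.71 and 1.39 in the infarct and border zones, Thrb, a thyroid hormone receptor, was lower by 1.41 and 0.85, and Slc16a10, a thyroid hormone transporter, by 1.72, 1.85 and 1.42 in the 3 zones. Among the rises were Nfatc4, a calcineurin-dependent factor (1.65, 1.46 and 0.72), and Dio2, the enzyme that activates thyroid hormone (1.56 and 1.41). In cell sheet against MI remote zone 8 rose and 2 fell, beside 17.1% of all genes, led by Slc16a10 (1.38, adjusted p = 0.0220), and Srf, serum response factor, rose by 0.72. Against Sham the cell sheet remote zone had none called, and the lowest p was that of Med13 (−0.58, adjusted p = 0.0597).

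Myosin heavy and light chain genes of other cells, counted together, moved in both directions. Of 8 tested, 5 rose and 1 fell in MI infarct zone against Sham, 3 rose and 1 fell in the border zone, and 2 rose and 2 fell in the remote zone, beside 49.9, 41.7 and 25.8% of all genes, with Myh10, a nonmuscle heavy chain, higher by 1.99, 1.73 and 0.93 in the 3 zones, and Myh14, also nonmuscle, lower by 1.65, 1.63 and 1.20. Myh11, the smooth muscle heavy chain, was higher in cell sheet than in MI hearts by 2.20 in the remote zone (adjusted p = 0.000169) and by 1.37 in the border zone (adjusted p = 0.0044). It was also the 1 gene called in cell sheet against Sham remote zone, with a difference of 1.65 (adjusted p = 0.0126). A fibroblast list had summed levels of 4366, 4803 and 6315 CPM in Sham infarct zone, 15625, 36342 and 44649 CPM in MI and 33201, 56616 and 70930 CPM in cell sheet hearts, so that these markers moved with the falls of the members, and their part in them was not tested.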

How the data were processed

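RNA-seq was made from 54 tissue pieces of 18 rats. The authors extracted RNA from frozen, pulverised tissue, made poly-A libraries, sequenced them in pairs and aligned the reads with STAR to mRatBN7.2. The deposited tables hold raw counts per gene, 40319 per library. Neither the program that counted reads nor its setting for strand is given in the sources used here. The tables also held 5 summary lines, 17.0 to 42.8% of all counts, which were left out. No 2 libraries of a group were identical.

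Counts were tested with edgeR 4.0.16 (R 4.3.3, limma 3.58.1): filterByExpr, TMM factors, quasi-likelihood F test on the 12 libraries of each comparison, and Benjamini-Hochberg adjustment over all genes tested at 0.05. Differences of zone effects were fitted with animal as a block. CPM used TMM factors over all 54 libraries, and log2 values an offset of 0.1 CPM. Ratios were taken with 0.5 count added to each gene and tested, like levels relative to the cardiomyocyte list, by two-sided exact permutation (Python 3.11.15, numpy 2.4.6, scipy 1.17.1, pandas 2.3.3). The scripts were tested on simulated counts. DESeq2 1.42.0, other filters and scalings, 1 fit of all groups, a replicate block and leaving out animals were the alternatives.

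All 8 members are named in each of the 9 comparisons of treatments. From other lists the text names up to 3 genes with the largest rise and fall among those called, or the gene with the lowest p where none was. For likeness it names the 3 genes with the highest Spearman rho among those with a mean log2 CPM of at least 1. A few genes that these rules select are not reported here. The members and lists were chosen with earlier results of these data known. RefSeq sequences and gene order are on GRCr8, which is not the build of the counts, and were used for names, neighbours and the printed windows only.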

Additional observations from a re-analysis of the deposited data

Results flagged for a closer look

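Within groups of 6, the lowest or highest library was tested by Dixon's gap ratio, in 117 groups of member levels and ratios. In 31 the end library lay apart, where chance gives about 1 in 20, and 18 of the 31 were Sham animal 5. The groups share animals and cardiomyocyte content, so the 31 are not independent cases.

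In the library of Sham animal 5, log2 CPM was lowest of its group by such a gap for Myh6 in the infarct (10.89) and remote zone (12.53), for Myh7b in the remote zone (5.76), for Myl2 in the infarct, border and remote zones (11.78, 11.84 and 12.23), for Myl3 (11.93, 11.80 and 11.80) and for Mylk3 (8.54, 8.38 and 8.75). Its log2 Myh7 to Myh6 ratio was the highest in each zone (−0.47, −0.15 and −0.41), as was its Myl4 to Myl3 ratio in the border zone (−8.07), and its Myh7b to Myh7 ratio was the lowest in the border (−4.69) and remote zones (−6.36).

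Cell sheet animal 3 stood apart in the remote zone in Myh6 (7.62), Myh7 (14.55) and their log2 ratio (6.94). Cell sheet animal 1 stood apart in the border zone in Myl2 (4.44), Myl3 (4.37), Mylk3 (3.23), the log2 ratios of Myl4 to Myl3 (−3.45) and of Mylk3 to Myl2 (−1.22), and in the remote zone in Myl3 (10.88) and Mylk3 (8.47). The rest were Myl4 in the remote zone of Sham animal 6 (7.69), Mylk3 in the remote zone of MI animal 5 (8.77) and the log2 ratio of Myl7 to Myl2 in the infarct zone of cell sheet animal 6 (−12.31).

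The effect of MI against Sham differed between the infarct and remote zones, in a test of that difference, for Myl2 (−1.58), Myl3 (−1.85), Mylk3 (−1.43) and the log2 Myh7 to Myh6 ratio (2.02).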

How the results depend on the processing

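The 9 comparisons were recomputed under each alternative. Of the recomputed fold changes of members, 1236 kept direction and call, 48 turned, 51 became called and 64 lost the call. For the Myh7 to Myh6 ratio the numbers were 109, 11, 2 and 19, and for levels relative to cardiomyocyte genes 348, 7, 3 and 61, of which 5 calls were lost with sarcomere genes only and 1 with the other genes only. Causes of these changes were not tested.

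Other tools and scalings moved counts of members called. DESeq2 called 4 in MI against Sham remote zone, 4 in cell sheet against Sham border zone and 1 in the border against remote interaction of MI with Sham. A single fit of all 9 groups called 3 in MI against Sham border zone, 0 in the remote zone (edgeR, Myh6 adjusted p = 0.205) and 4 in cell sheet against Sham border zone. Without TMM factors the median of all genes moved by up to 0.27 (cell sheet against Sham border zone), and the difference became 0.16 for Myh7 in MI against Sham border zone, 0.11 for Myh7 in cell sheet against Sham infarct zone and −0.0062 for Myl2 in cell sheet against MI remote zone. Taken as a difference of linear ratios, Myh7 to Myh6 differed by 0.469 in MI against Sham remote zone (exact permutation adjusted p = 0.0935) and by 19.9 in cell sheet against MI remote zone.

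Leaving out the 3 animals, chosen after seeing the data, gave Myh7 differences of 0.095 and −0.052 in cell sheet against Sham infarct and remote zones and −0.20 in cell sheet against MI remote zone, and Myl4 differences of −0.039 in cell sheet against Sham border zone and of 0.15 and −0.087 in cell sheet against MI infarct and remote zones. The cell sheet against MI ratio became −0.61 in the infarct, −0.87 in the border and −1.96 in the remote zone, and the members called became 3 in cell sheet against MI remote zone and 6 in cell sheet against Sham border zone. Without only Sham 5 and cell sheet 1 the latter was 5.

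Equal replicate numbers mark different rats across treatments. Same-numbered libraries correlated above 0.1 in 16 of 54 pairs, and in 0 of 9 comparisons did all pairs do so, so the numbers were not read as pairs. With a replicate block, members called were 2 and 3 in MI against Sham border and remote zones and 0 in cell sheet against Sham border zone. The ratio differences stayed 3.65, 2.42 and 1.64 in MI against Sham infarct, border and remote zones and 4.34 and 3.26 in cell sheet against Sham infarct and border zones, but 6 pairs cannot go below an exact permutation p of 0.03125, and adjusted p was 0.0703 or more. All 7 called ratios between other members lost the call under the block in the same way (exact permutation adjusted p = 0.141). Under the block the direction turned for Myh6 in cell sheet against MI infarct zone (−1.43), for Myl4 in MI against Sham remote zone (0.61) and in cell sheet against Sham border (−0.34) and remote zones (0.59), and for Myl7 in MI against Sham infarct (−0.29) and remote zones (0.72), cell sheet against MI border (−0.10) and remote zones (−0.24) and cell sheet against Sham remote zone (0.82).

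Leaving out 1 animal at a time gave these ranges. Members called ran from 2 to 7 in MI against Sham border zone, 1 to 5 in its remote zone, 0 to 2 in cell sheet against MI remote zone, 0 to 5 in cell sheet against Sham border zone and 0 to 3 in the infarct against remote interaction of MI with Sham. The log2 Myh7 to Myh6 ratio ran from 1.30 to 2.04 in MI against Sham remote zone, from 2.06 to 3.87 in cell sheet against Sham border zone, and from −0.32 to 1.27, −0.36 to 1.45 and −1.57 to 0.52 in cell sheet against MI infarct, border and remote zones. In MI against Sham, Myh7 ran from −0.23 to 0.16 in the border and −0.40 to 0.16 in the remote zone, Myl4 from −1.15 to 1.43 in the remote zone, and Myl7 from −0.99 to 1.27 in the infarct and −3.16 to 2.53 in the remote zone. In cell sheet against Sham, Myh7 ran from −0.64 to 0.11 in the infarct and −0.28 to 1.48 in the remote zone, Myl4 from −0.37 to 0.38 in the border and −0.78 to 1.61 in the remote zone, and Myl7 from −1.07 to 3.54 in the remote zone. In cell sheet against MI, Myh6 ran from −1.42 to 0.71 and Myl4 from −0.45 to 0.28 in the infarct zone, Myh7b from −0.048 to 0.55, Myl7 from −0.52 to 0.60 and Mylk3 from −0.46 to 0.17 in the border zone, and Myh7 from −0.15 to 1.62 and Myl4 from −0.23 to 0.79 in the remote zone. The Myh6 level relative to cardiomyocyte genes ran from −0.032 to 1.22 in the border and −0.15 to 1.03 in the remote zone of the same comparison.

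Depth limits mainly Myl7, whose border zone level was as low as 0.092 CPM.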
